A study of Homo sapiens with 12 samples.

Results

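The troponin genes were followed through alveolar rhabdomyosarcoma cells with and without knockdown of the PAX3-FKHR fusion factor. The 8 genes TNNC1, TNNC2, TNNI1, TNNI2, TNNI3, TNNT1, TNNT2 and TNNT3 were taken by their symbols and not picked by their values. Earlier results of these data were known when this set was chosen. The 8 genes are read by 11 of the 41000 gene probes on the array, which carry 30238 gene names in all. TNNT2 has 3 probes, TNNT3 has a pair and each of the others has a single probe. All 8 genes had a probe above the signal limit for testing in every comparison, and each gene is described by its brightest probe.

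Troponin is the calcium switch of striated muscle and sits on the thin filament together with tropomyosin. Troponin C binds calcium, troponin I blocks the contact of actin with myosin until calcium is bound, and troponin T ties the complex to tropomyosin. Muscle fibre types use different versions: TNNC1 is the slow skeletal and cardiac troponin C and TNNC2 the fast one, TNNI1, TNNI2 and TNNI3 are the slow, fast and cardiac forms of troponin I, and TNNT1, TNNT3 and TNNT2 are the slow, fast and cardiac forms of troponin T. The skeletal forms are switched on as myoblasts differentiate, a program that rhabdomyosarcoma cells enter only in part.

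The measured sequences are shown for the members on which the results turn, so that the reader can see which stretch of each transcript the array reads. Each is a 60-base probe printed 5′ to 3′ in the sense of the transcript. No letters are capitalised because the whole probe hybridises.

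TNNI1 (A_23_P51565, the slow troponin I): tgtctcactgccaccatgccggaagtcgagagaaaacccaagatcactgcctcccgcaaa
TNNC1 (A_23_P166823, the slow and cardiac troponin C): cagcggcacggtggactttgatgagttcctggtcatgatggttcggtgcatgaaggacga
TNNI2 (A_23_P24784, the fast troponin I): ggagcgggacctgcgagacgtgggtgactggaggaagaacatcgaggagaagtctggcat
TNNT1 (A_23_P56050, the slow troponin T): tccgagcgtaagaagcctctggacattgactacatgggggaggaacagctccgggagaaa
TNNT3 (A_23_P127824, the fast troponin T): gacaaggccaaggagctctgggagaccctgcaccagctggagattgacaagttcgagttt
TNNT2 (A_23_P34700, the cardiac troponin T): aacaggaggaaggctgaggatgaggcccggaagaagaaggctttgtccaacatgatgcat

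On build NCBI36 the TNNI1 probe maps to chr1:199650976-199653559 on the minus strand, a span of 2584 bases, so that its 60 bases cross at least 1 intron. The TNNC1 probe lies at chr3:52460854-52460913 on the minus strand, within an uninterrupted stretch. The TNNI2 probe is at chr11:1819013-1819320 on the plus strand and the TNNT1 probe at chr19:60337330-60340335 on the minus strand, and both cross an intron. The TNNT3 probe is at chr11:1912636-1912695 on the plus strand and the TNNT2 probe at chr1:199599068-199599127 on the minus strand, without an intron. The remaining brightest probes are those of TNNC2 on chromosome 20 (A_23_P131825) and of TNNI3 on chromosome 19 (A_23_P67453).

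The arrays hold RNA from 3 cultures of Rh30, a human alveolar rhabdomyosarcoma cell line. WT is the untransfected parental line, CON is a clone that stably carries a non-targeting shRNA from a retroviral vector, and KD1 is a clone that stably carries an shRNA against PAX3-FKHR from the same kind of vector. Both clones were kept in puromycin at 1 μg/mL and WT was not, so that drug, transduction and cloning cannot be told apart between WT and the clones. CON and KD1 are each 1 clone, and a clone effect cannot be told apart from that of the shRNA. Cells were taken 24 h after plating. Each of the 3 comparisons, WT vs CON, KD1 vs WT and KD1 vs CON, has 2 biological replicates with a dye-swap pair each, which makes 12 arrays of 6 RNA extracts. Each extract is in a pair of comparisons, so the comparisons are not independent. Slide and replicate cannot be told apart in both KD1 comparisons, where every replicate had its own slide.

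The 3 PAX3 probes had mean log2 ratios between −0.42 and −0.09 in KD1 vs CON and the 2 FOXO1 (FKHR) probes had −0.42 and −0.39. None of these passed the limma test in any comparison, and they may also read transcripts of the unfused genes, so they are a weak check of the knockdown. All 7 rhabdomyosarcoma and myoblast markers were well above background on every array in each culture. The second WT extract stood apart in epithelial transcripts, with EPCAM, an epithelial adhesion molecule, well above background on 4 of its 4 arrays and on none of the arrays of the other 5 extracts. Its EPCAM log2 ratio in WT vs CON was 5.43, against 0.24 in replicate 1. Since CON was not above background, 5.43 is only a bound, and in replicate 1 neither culture was above background. The summed signal of the 5 epithelial markers ran from 2909 to 4172 in that extract, from 2161 to 2715 in the first WT extract, from 1404 to 1969 in CON and from 1416 to 2450 in KD1, and none of the 3 markers tested in WT vs CON passed. The ratios of the brightest troponin probes are therefore given for each replicate, and the part of these transcripts' source in the results was not tested.

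The comparison of the parental line with the control clone holds no knockdown, and shows how far the troponin genes differed between cultures without one. In WT vs CON 7 of the 8 genes, all but TNNT2, lay below 0 on the log2 scale in both replicates, where 33.2% of all genes tested did so. The median log2 ratio of the 8 genes was −0.95, against −0.03 over all probes. TNNI1 was the only gene of the 8 that fell by limma at an adjusted p of 0.05, with a background of 1.37% of probes called in either direction and 0.594% called lower. An unadjusted p below 0.05 was reached by 5 of the 8 genes and by 16.5% of the probes tested. Since whole cultures were measured, fewer cells that express a gene and less RNA in each cell cannot be told apart.

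In KD1 vs WT 7 of the 8, again all but TNNT2, were above 0 in both replicates, where 28.8% of all genes tested were, and their median log2 ratio was 1.55, against 0.01 over all probes. TNNI1 again was the only gene called, as higher in KD1, with a background of 1.05% of probes called and 0.285% called higher. Here 6 of the 8 had an unadjusted p below 0.05, as did 17.2% of the probes. Both comparisons use the WT extracts, so a low value in WT enters each of them.

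Against the control clone, the comparison that bears most directly on the shRNA, limma called 0 of the 8 genes, with a background of 1.79% of probes. Only TNNC2 had an unadjusted p below 0.05 there, which 17.2% of the probes tested had. The replicates of 5 of the 8 genes lay on opposite sides of 0 (6 with normexp and 4 with median centring), and the median log2 ratio was −0.15 in replicate 1 and 0.76 in replicate 2. TNNT2, near 0 in both, is among the 5. Of the 8 genes 1 was below 0 in both replicates and 2 were above, where 37.4% of all genes tested were below and 34.2% above.

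**Figure D1:**
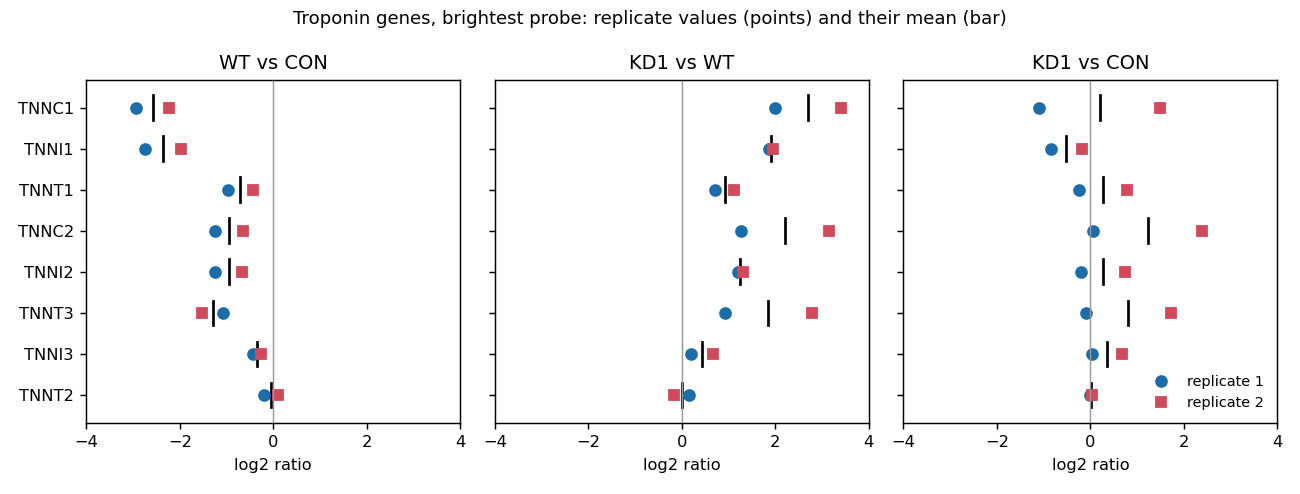
Log2 ratio (x axis) of each troponin gene by its brightest probe (y axis) in the 3 comparisons, with a point for each of the 2 replicates and a bar at their mean. TNNC1 and TNNI1 lie farthest from 0 in WT vs CON, TNNT2 stays near 0 throughout, and in KD1 vs CON replicate 2 lies to the right of replicate 1 for all 8 genes.

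Troponin I gave the one gene that was called. Signals were normalized by the authors within an array and not between arrays. The TNNI1 signal in WT ran from 1310 to 3158 over 8 arrays with a median of 2418, and in CON from 9752 to 13355 with a median of 11592. The groups did not overlap, and the highest WT array was below the lowest CON array. The same held for TNNC1, TNNC2 and TNNI2, none of which was called. For TNNT1, also not called, it held only narrowly. Its highest WT signal was 123577 and its lowest CON signal 123909, on different arrays. The 8 arrays of a culture hold only 2 extracts, and the share of all probes without overlap was not worked out. The KD1 signal had a median of 6461 in replicate 1, between the WT and CON ranges, and ran from 10140 to 13277 in replicate 2, within the range of CON. The TNNI1 log2 ratio in WT vs CON was −2.74 in replicate 1 and −1.97 in replicate 2, a mean of −2.36 ± 0.54 (SD, n = 2) or 5.13-fold lower in WT (limma, adjusted p = 0.00847). For KD1 vs WT the values were 1.87 and 1.96, a mean of 1.92 ± 0.06 (SD, n = 2) or 3.77-fold higher in KD1 (limma, adjusted p = 0.0208). The slow troponin I thus differed between WT and each clone in both replicates. Neither call held with normexp background correction or without the pairing of replicate extracts, where the adjusted p reached 0.107 for KD1 vs WT and 0.110 for WT vs CON at the most, and the KD1 vs WT call was also lost with extract values and with 3 residual degrees of freedom. In KD1 vs CON its values were −0.85 and −0.18 (limma, adjusted p = 0.337), and the 95% interval of the mean from −1.08 to 0.05 includes 0.

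The fast troponin I, TNNI2, had log2 ratios of −1.24 and −0.67 in WT vs CON (limma, adjusted p = 0.131). Its KD1 vs WT values were 1.19 and 1.31 (limma, adjusted p = 0.0765), and in KD1 vs CON −0.19 and 0.73 (limma, adjusted p = 0.648). TNNI2 therefore had the signs of TNNI1 against WT without passing the test. Cardiac TNNI3 was dim, with signals from 58.6 to 108 in WT, and had log2 ratios of −0.44 and −0.27 for WT vs CON, 0.20 and 0.67 for KD1 vs WT and 0.04 and 0.67 for KD1 vs CON. All its adjusted p-values by limma were at or above 0.384.

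No troponin C gene was called by limma. TNNC1, the calcium sensor of slow and cardiac fibres, had signals from 397 to 1064 in WT and from 2825 to 4063 in CON, and these ranges did not overlap. Its log2 ratio in WT vs CON was −2.93 and −2.23, a mean of −2.58 ± 0.50 (SD, n = 2), 5.97-fold lower in WT (limma, adjusted p = 0.0613). In KD1 vs WT the values were 2.00 and 3.41, a mean of 2.70 ± 1.00 (SD, n = 2; limma, adjusted p = 0.0624). Both mean ratios of TNNC1 were larger than those of TNNI1, but its standard error was 0.50 on the log2 scale where that of TNNI1 was 0.25. Against CON the KD1 replicates of TNNC1 opposed each other, at −1.09 and 1.49 (limma, adjusted p = 0.898). The KD1 signal had a median of 1481 in replicate 1 and of 11402 in replicate 2, while the CON medians were 3340 and 3592.

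TNNC2, the fast troponin C, had overlapping signals in CON and in the first KD1 extract and was high in the second KD1 extract alone. Its signal ran from 440 to 530 in the first KD1 extract and from 2403 to 3590 in the second, against 406 to 553 over all CON arrays. The log2 ratio in KD1 vs CON was 0.07 in replicate 1 and 2.39 in replicate 2, a mean of 1.23 ± 1.64 (SD, n = 2; limma, adjusted p = 0.265). Against WT it was 1.26 and 3.16 (limma, adjusted p = 0.101), and the WT vs CON values were −1.25 and −0.65 (limma, adjusted p = 0.395). By the selection criteria of the study's methods, a mean of at least 2-fold with the same direction on every array, TNNC2 was the only troponin gene that stood above both other cultures in KD1, where 0.526% of the probes did. That mean rests on replicate 2, since replicate 1 differed from CON by 1.05-fold.

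**Figure D2:**
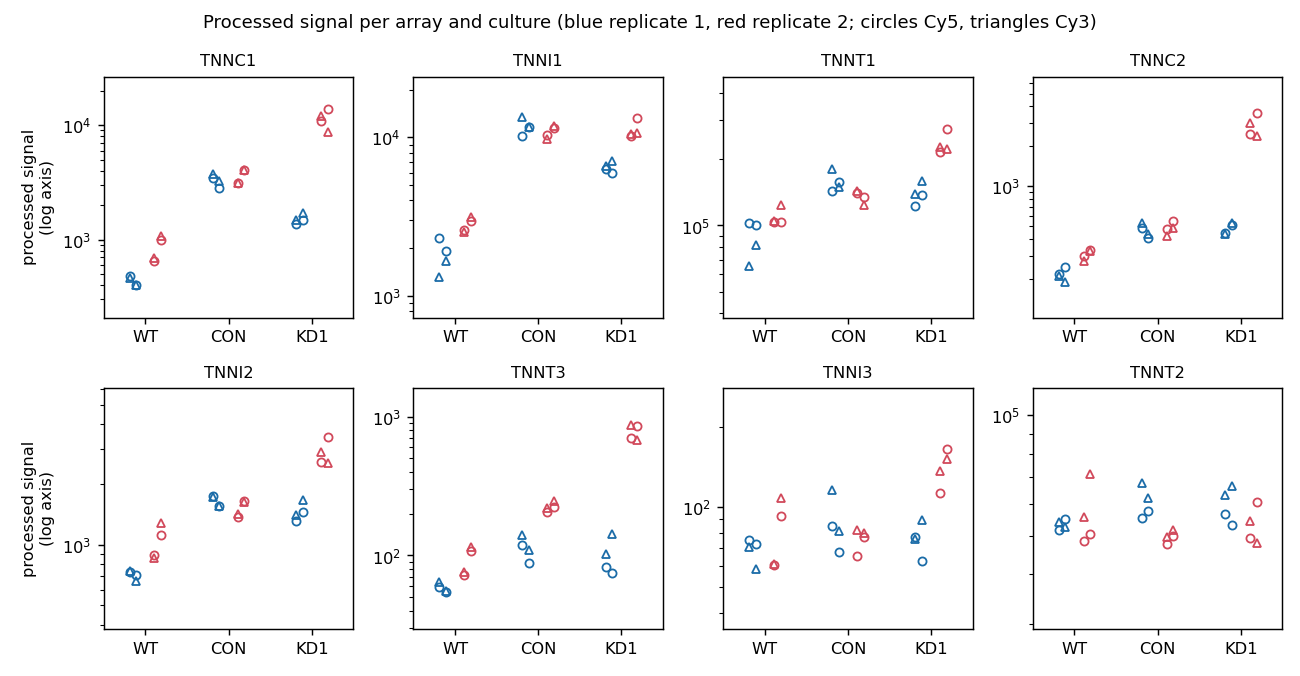
Processed signal (y axis, log scale, arbitrary units) of the brightest probe of each troponin gene in WT, CON and KD1, 1 point per array, with replicate 1 in blue, replicate 2 in red, circles for Cy5 and triangles for Cy3. In the panels of TNNC1, TNNC2, TNNI2, TNNT1 and TNNT3 the second KD1 extract lies above all other points, whereas TNNT2 shows no separation of the cultures; signals are comparable within a panel only.

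No troponin T gene was called. TNNT3, the fast form, had signals from 54.3 to 115 in WT and from 88.7 to 247 in CON. Its log2 ratio was −1.07 and −1.53 in WT vs CON (limma, adjusted p = 0.217). The signal ranges of WT and CON overlapped over all arrays but not within a replicate, at 54.3 to 64.3 against 88.7 to 140 in replicate 1 and 72.0 to 115 against 206 to 247 in replicate 2. For KD1 vs WT the ratio was 0.92 and 2.78 (limma, adjusted p = 0.114), and in KD1 vs CON −0.10 and 1.73 (limma, adjusted p = 0.405). The second TNNT3 probe, A_24_P915376, was dimmer, was tested in WT vs CON alone and had log2 ratios of −1.24 and −1.76 there (limma, adjusted p = 0.134). Untested, its KD1 vs CON values of 0.13 and 1.52 were split between the replicates like those of the brighter probe. TNNT1, the slow form, had −0.97 and −0.44 for WT vs CON, 0.71 and 1.13 for KD1 vs WT and −0.24 and 0.78 for KD1 vs CON. All its adjusted p-values by limma were at or above 0.158.

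Cardiac TNNT2 was the exception in the family by its ratios. Its signal was high in every culture, from 48449 to 71475 in WT, from 47715 to 67772 in CON and from 47852 to 66643 in KD1. Its log2 ratio was −0.21 and 0.09 for WT vs CON, 0.15 and −0.16 for KD1 vs WT, and −0.00 and 0.03 for KD1 vs CON. The 95% intervals of the means, from −0.54 to 0.42, from −0.48 to 0.47 and from −0.45 to 0.47, leave room for differences of up to about that size in each comparison. The other two TNNT2 probes, A_24_P257022 and A_24_P927304, had means of −0.13 and −0.14 for WT vs CON, 0.05 and 0.15 for KD1 vs WT, and 0.05 and 0.01 for KD1 vs CON, and no TNNT2 probe was called by limma. The signs of the KD1 comparisons of TNNT2 changed with the processing.

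By the 2-fold criteria without a test, TNNC1, TNNI1 and TNNT3 were lower in WT than in CON, where 2.01% of probes were, and these same genes were also lower in WT than in KD1, a combination that 0.533% of probes had. TNNC1, TNNC2, TNNI1, TNNI2 and TNNT3 met the criteria as higher in KD1 than in WT, where 1.86% of probes did. In KD1 vs CON only TNNC2 met them, where 1.88% of probes were higher. TNNI3, TNNT1 and TNNT2 met them nowhere.

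The order of the cultures was worked out for each gene and replicate from its 3 ratios. WT was the lowest culture for 8 of 8 genes in replicate 1 and for 7 of 8 in replicate 2, with TNNT2, whose cultures then lay within 0.13 on the log2 scale, as the exception. This restates the WT vs CON and KD1 vs WT ratios given above and is no separate result. The share of all genes with WT lowest was not worked out. What changed between replicates was the place of KD1. In replicate 1 CON was highest for TNNC1, TNNI1, TNNI2, TNNI3, TNNT1, TNNT2 and TNNT3, although for TNNI3 and TNNT2 it led KD1 by only 0.05 and 0.02 on the log2 scale, and KD1 led for TNNC2 by 0.05. The place of CON above KD1 for TNNI3 is not settled, since the direct KD1 vs CON ratio of that replicate was 0.04 and the 3 ratios missed closing by 0.29. In replicate 2 KD1 was highest for TNNC1, TNNC2, TNNI2, TNNI3, TNNT1 and TNNT3, and TNNI1 kept CON on top by 0.12 on the log2 scale.

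The KD1 vs CON ratio was higher in replicate 2 than in replicate 1 for 8 of 8 troponin genes, also with normexp, with median centring and in the series table. The median gap between the replicate log2 ratios in KD1 vs CON was 0.97 over the 8 genes, while the median absolute gap over all probes was 0.21 and their 95th percentile 0.87. The gap of 5 of the 8 genes was past that percentile. Replicate 2 was also higher for 7 of 8 in KD1 vs WT, with 2 genes past the 95th percentile of 1.42 there. Their median gap of 0.44 was close to the median absolute gap of 0.40 over all probes. In WT vs CON it was higher for 7 of 8, with a median gap of 0.55 against 0.35 over all probes and 0 genes past 1.19. With its sign kept, the median gap over all probes was −0.03 (KD1 vs CON), −0.06 (KD1 vs WT) and 0.05 (WT vs CON). A ratio does not tell which of its cultures moved between replicates. The direct KD1 vs CON ratio and the sum of the other 2 ratios differed by at most 0.29 in replicate 1 and 0.47 in replicate 2 over the 8 brightest probes, and the median gap between the dye orientations was 0.20, the widest 0.94 for TNNT3 in KD1 vs WT. These gaps are between arrays of the same extracts and leave out the spread between cultures.

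Each troponin I gene lies near a troponin T gene on the same chromosome. In places another gene lies between them, as LAD1 between TNNT2 and TNNI1 and LSP1 between TNNI2 and TNNT3. The TNNT2 and TNNI1 probes on chromosome 1 are 51.8 kb apart, those of TNNI2 and TNNT3 on chromosome 11 are 93.3 kb apart, and those of TNNT1 and TNNI3 on chromosome 19 are 17.0 kb apart. The chromosome 1 neighbours differed most from each other, with a mean log2 ratio in WT vs CON of −2.36 for TNNI1 and −0.06 for TNNT2. The chromosome 11 pair had −0.96 and −1.30 and the chromosome 19 pair −0.71 and −0.36. Within 1 Mb of the TNNI1 probe 27 other genes were tested in WT vs CON, with a median of 0.06 and a lowest value of −0.65, and none was called. Around the TNNC1 probe 41 genes were tested, with a median of −0.13, and 1 was called.

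**Figure D3:**
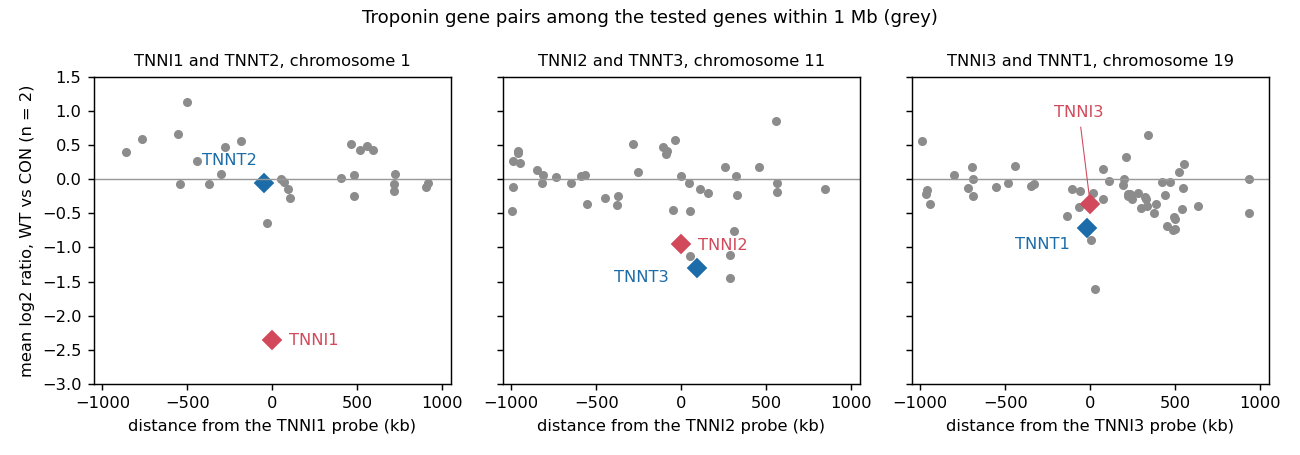
Mean log2 ratio in WT vs CON (y axis, n = 2) of the 3 neighbouring troponin gene pairs (diamonds) and of the other tested genes within 1 Mb (grey), by distance from the probe of the troponin I gene in kb (x axis). TNNI1 at −2.36 lies below every neighbour on chromosome 1, and TNNT2 at −0.06 lies among them.

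Other contraction genes and the myogenic factors were taken as 5 lists of 41 genes. In WT vs CON 6 of the 30 tested were called, all lower in WT, with 1.37% of probes called over the array, and 20 had an unadjusted p below 0.05. The median log2 ratio of the 30 was −0.74. The 6 were MYL1, MYL4, MYOZ2, MYH6, PVALB and MYOG, of which MYH6 and PVALB are named here because they were called. These 2 were dim in WT, with MYH6 well above background on 1 and PVALB on 4 of its 8 arrays. Their ratios are therefore only bounds. In KD1 vs WT 2 of 25 were called, both higher, where 1.05% of probes were called, with 13 at an unadjusted p below 0.05 and a median of 0.38. In KD1 vs CON limma called 0 of 24, where 1.79% of probes were called, with 5 at an unadjusted p below 0.05 and a median of −0.23. The lists were chosen with earlier results of these data known and carry no test of their own.

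Among the thin filament genes 0 of the 9 tested were called in WT vs CON and 0 of 8 in either KD1 comparison, with medians of −0.70 (WT vs CON), 0.13 (KD1 vs WT) and −0.49 (KD1 vs CON). TPM1, a tropomyosin, had the lowest KD1 vs CON value of those tested at −0.90, followed by the cardiac actin ACTC1 at −0.69. TMOD1, which caps thin filaments, had the highest of those tested at 0.41, followed by the tropomyosin TPM3 at 0.30. Unlike most troponin genes, ACTC1 had a mean log2 ratio of only 0.09 in KD1 vs WT and TPM1 one of −0.12.

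Fast fibre genes had 2 of 6 called lower in WT vs CON (median −1.10), 1 of 4 called higher in KD1 vs WT (median 1.42) and 0 of 3 called in KD1 vs CON (median −0.01). PVALB, dim in WT and with only a bound for its ratio, was among those called lower. MYL1, a fast myosin light chain, fell to a log2 ratio of −2.51 ± 0.18 (SD, n = 2) in WT vs CON (limma, adjusted p = 0.0373) and rose to 2.46 ± 1.14 (SD, n = 2) in KD1 vs WT (limma, adjusted p = 0.0469). In KD1 vs CON MYLPF, the regulatory light chain of fast fibres, had −0.71 and 1.62, a split of the replicates like that of TNNC1, and ATP2A1, the calcium pump of the fast sarcoplasmic reticulum, had −0.53 and 0.04.

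Slow fibre genes had 1 of 4 called lower in WT vs CON (median −1.23), 1 of 4 called higher in KD1 vs WT (median 1.44) and 0 of 4 called in KD1 vs CON (median 0.04). MYOZ2, a Z-disc protein of slow and cardiac fibres, fell to −3.10 ± 0.55 (SD, n = 2) in WT vs CON (limma, adjusted p = 0.0367). Against WT it rose to 3.34 ± 1.69 (SD, n = 2) in KD1 (limma, adjusted p = 0.0323). MYH7, the slow myosin heavy chain, had the highest KD1 vs CON mean of the tested genes of the list at 0.83, from 0.20 and 1.47. ATP2A2, the calcium pump of slow and cardiac fibres, had the lowest of the tested genes at −0.21 and the light chain MYL3 had −0.10.

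The cardiac list had 2 of 5 called lower in WT vs CON (median −0.71), 0 of 3 called in KD1 vs WT (median −0.01) and 0 of 3 called in KD1 vs CON (median −0.64). MYH6, dim in WT and with only a bound for its ratio, was among those called lower. MYL4, an atrial and embryonic myosin light chain, fell to −1.90 ± 0.38 (SD, n = 2) in WT vs CON (limma, adjusted p = 0.0139). In KD1 vs CON the cardiac factor NKX2-5 had −0.71, MYL4 −0.64 and the natriuretic peptide gene NPPB −0.43, none of them called.

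Of the myogenic factors, 1 of 6 was called lower in WT vs CON (median −0.34) and 0 of 6 in each KD1 comparison (medians 0.25 in KD1 vs WT and −0.29 in KD1 vs CON). MYOG, the factor that drives the differentiation of myoblasts, fell to −1.81 ± 0.45 (SD, n = 2) in WT vs CON (limma, adjusted p = 0.0176). MYF5, an early factor of the myoblast lineage named here after its values were seen, had the opposite sign, at 1.84 and 1.33 in WT vs CON (limma, adjusted p = 0.0955) and −1.42 and −2.42 in KD1 vs WT (limma, adjusted p = 0.0689). Against CON, MYOG in KD1 had −1.32 and −0.97 (limma, adjusted p = 0.0529), both below 0, as were 37.4% of all genes tested. Of the 8 troponin genes 5 had opposite signs there, with TNNT2 near 0 among them. MYOD1, the factor that sets the muscle lineage, had means of −0.04 for WT vs CON, 0.07 for KD1 vs WT and 0.03 for KD1 vs CON. MEF2C, a partner of these factors, had −0.46 in KD1 vs CON and MEF2D had 0.03.

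**Figure D4:**
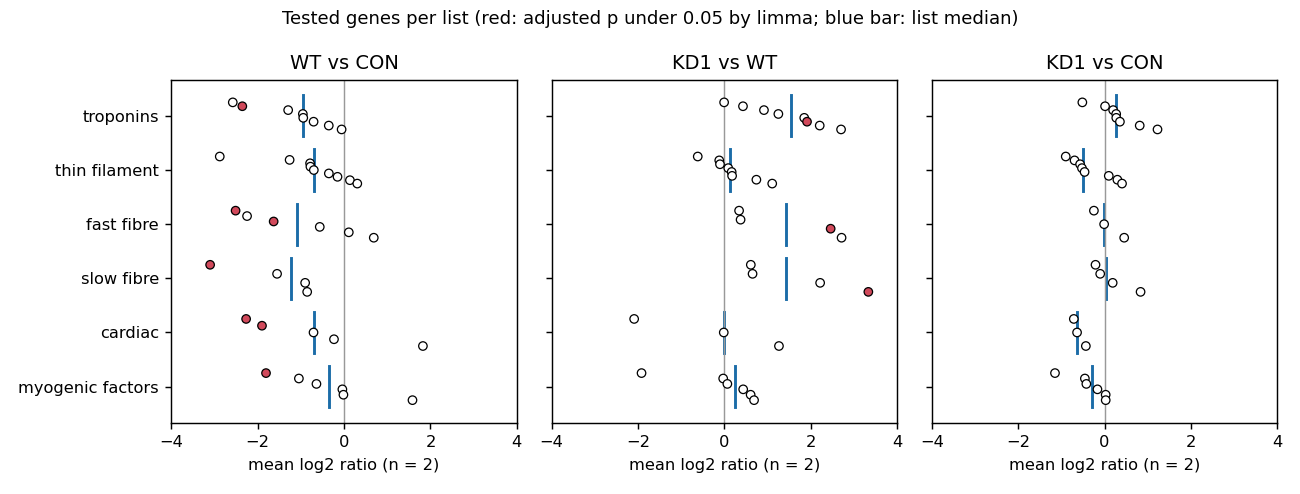
Mean log2 ratio (x axis, n = 2) of every tested gene of the troponins and of 5 lists of other muscle genes (y axis) in the 3 comparisons, with genes called by limma in red and the list median as a blue bar. Medians of all 6 rows lie below 0 in WT vs CON, and no gene of any row is called in KD1 vs CON.

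The genes most like TNNI1 over its 6 replicate values, among 15704 genes tested in all comparisons, were SYT6, C13orf18 and MYL4, with root mean square differences of 0.19, 0.33 and 0.47 on the log2 scale. SYT6, a synaptotagmin, had −2.88 and −2.34 for WT vs CON, 2.01 and 1.86 for KD1 vs WT and −0.66 and −0.11 for KD1 vs CON. MYL4 is the light chain named above, so that the list of contraction genes and the nearest pattern met in this gene. Likeness over 6 values that share extracts is a description and carries no test.

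Markers of other cell types were low in all cultures, the epithelial ones apart. Of 5 fibroblast markers, 1 was well above background on every array in each culture, and their summed signal ran from 203 to 426 in WT, from 147 to 265 in CON and from 199 to 682 in KD1. Within KD1 that sum ran from 199 to 283 in the first extract and from 495 to 682 in the second, whose KD1 vs CON troponin ratios were the higher ones, and the part of this in the split was not tested. COL1A2, a collagen gene too dim to be tested, had KD1 vs CON values of 2.29 and 2.17, which are only bounds, as it was well above background on 0 CON arrays. Of 4 leukocyte markers, 2 were above on every array, PTPRC, the defining one, was above background on 0 arrays, and the summed signal ran from 136 to 267 in WT, from 154 to 248 in CON and from 178 to 291 in KD1. None of the tested markers was called, but tested were only 1 of the 5 fibroblast markers, 2 or 3 of the 5 epithelial ones and 1 or 2 of the 4 leukocyte ones, depending on the comparison. In replicate 1 EPCAM and CDH1 were not above background in WT, but KRT18 ran from 1247 to 1583 against 572 to 809 in CON. The other keratins overlapped there. KRT8 ran from 881 to 1092 in WT against 793 to 1120 in CON, and KRT19 from 24.4 to 32.3 against 20.0 to 35.4. The WT vs CON ratio of that replicate was farther from 0 than in replicate 2 for 7 of the 8 troponin genes and nearer to 0 for TNNT3. With 1 WT extract per replicate, the part of the epithelial signal in these ratios was not tested.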

How the data were processed

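RNA (500 ng per label) from Rh30 cultures was hybridized to Agilent 2-colour whole human genome arrays. The authors extracted spots with Agilent Feature Extraction 10.5.1.1 (submitters' processing notes and file headers) and deposited linear intensity values, with processed signals that were background-subtracted and lowess-normalized within each array. The deposited log10 ratio is that of red over green processed signal. In a table of the series the authors give log2 ratios, already turned for dye swaps, and 0 of its sample columns were left unmatched. Positions are those of the files (NCBI36).

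Log2 ratios of the processed intensities were turned so that the first culture is the numerator, without outlier-flagged spots (95 to 188 per array; no spot was saturated), and averaged over spots and over each dye-swap pair. Probes were tested where the background-subtracted signal was higher in 1 or both channels than the negative controls' 99th percentile on each array compared. This left 21937 probes for KD1 vs CON, 24884 for KD1 vs WT and 26595 for WT vs CON. Limma 3.58.1 (R 4.3.3) was fitted to the 6 replicate values of all 3 comparisons with residual degrees of freedom set to 2, and p was adjusted by Benjamini-Hochberg over all probes tested, with a threshold of 0.05 (called). The fit was tested on simulated data. Replicate numbers pair the extracts, since each array holds same-numbered extracts of both cultures, and the ratio within the array is the pairing. P-values rest on 1 spread per probe, pooled over the 6 replicate values of the 3 comparisons and moderated by limma towards that of all probes. They therefore do not follow the SD of the 2 replicates of a single comparison. The number of extracts, 6 in all, limits precision, since arrays of the same extract are technical repeats.

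A gene was represented by its probe with the highest mean signal. All troponin probes are named; of the listed muscle genes those with the 2 lowest and 2 highest KD1 vs CON means per list, MYOD1 and MYOG, and the called genes; and the 3 genes most like each called member. The members and lists were chosen with earlier results of these data known. The 2-fold criteria were a mean of at least 2-fold, the same signal limit, and the same direction on every array. Alternatives were another background correction (normexp, offset 50, with loess), median centring, the series table, no or a stricter filter, fits without the replicate block or with extract values, arrays with slide dye effects, 3 residual degrees of freedom, means over probes, the 2-fold criteria, and each replicate left out. Tables and plots were made in matplotlib 3.10.9, scipy 1.17.1, pandas 2.3.3 and numpy 2.4.6 under Python 3.11.15 and with the R package data.table (version 1.17.8).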

Additional observations from a re-analysis of the deposited data

How the results depend on the processing

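Troponin genes called, which were 0 in KD1 vs CON and 1 in each of KD1 vs WT and WT vs CON, became 0 in KD1 vs WT with normexp, without the replicate block, with least-squares extract values and the block, and with 3 residual degrees of freedom. In WT vs CON they became 0 with normexp and without the block. With slide dye effects 3 were called for KD1 vs WT and 2 for WT vs CON. The 2-fold criteria gave 1 (KD1 vs CON), 5 (KD1 vs WT) and 3 (WT vs CON), and with a replicate left out 1 to 3, 4 to 6 and 3 to 5. In KD1 vs CON the direction turned, with 1 lower (TNNC1) without replicate 2 and 3 higher without replicate 1. TNNI1 was called in 5 of 9 alternatives in KD1 vs WT (adjusted p 0.00473 to 0.107) and in 7 of 9 in WT vs CON (0.00238 to 0.110), with log2 ratios of 1.82 to 1.96 and −2.40 to −2.25. No called ratio changed sign. The sign of TNNT2 changed in 1 of 10 alternatives in KD1 vs CON and 5 of 10 in KD1 vs WT.

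Probes called over the array were 393 for KD1 vs CON, 261 for KD1 vs WT and 365 for WT vs CON, the order kept below. They became 26, 1 and 2 with normexp, 202, 126 and 114 without the replicate block, 161, 107 and 131 with extract values and the block, and 1032, 916 and 885 with slide dye effects. The 2-fold criteria gave 864, 1082 and 1174, and with a replicate left out 900 to 2743, 2027 to 2583 and 2034 to 2046. With no filter 254 were called in KD1 vs CON and 200 in WT vs CON. With 3 residual degrees of freedom 151 were called for KD1 vs WT and 233 for WT vs CON. Median centring gave 221 in WT vs CON, 70 of them lower where 158 of 365 were, and in KD1 vs WT 174, 145 of them lower where 190 of 261 were. The causes were not tested.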
